A study of Mus musculus with 12 samples.

Results

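Cytochrome P450 enzymes of families 1 to 4 were followed in mouse livers after small interfering RNA (siRNA) against Eif3m, and 80 genes made up the group among 50686 rows of the counts table. A gene was included when its mouse symbol began with Cyp1, Cyp2, Cyp3 or Cyp4, went on with a letter and a number, and was annotated as protein-coding. These genes fall into 21 subfamilies, named by the family number and the letter. The livers came from FVB/N mice 6 to 8 weeks old. They had been injected through a tail vein with 0.5 mg/kg of siRNA packed in lipid nanoparticles, with 1 injection per interval of 5 days. The number of injections up to day 9 and up to day 13 is not given here. A difference in it could not be told apart from the day. The 4 groups were Eif3m siRNA at day 9, luciferase control siRNA at day 9, Eif3m siRNA at day 13 and luciferase control siRNA at day 13, with 3 libraries each and 12 in all. No untreated mice were analysed here, and both arms of each comparison had received nanoparticles and an siRNA. The labels do not give the sex of the mice. They do not say either that the libraries are of different animals, and p-values cover only the spread among these libraries. Eif3m encodes a subunit of eIF3, a complex that brings the small ribosomal subunit to messenger RNA.

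Enzymes of these families are membrane proteins of the endoplasmic reticulum that use a heme group and electrons passed on by P450 reductase to oxidise drugs, steroids and fatty acids. Families 1 to 3 take up most foreign compounds and many are switched on by receptors for such compounds (the aryl hydrocarbon receptor AHR, the constitutive androstane receptor CAR and the pregnane X receptor PXR), while family 4 oxidises fatty acids and partly follows the fatty acid receptor PPAR alpha. In the mouse many members stand in tandem arrays of close copies, several are made mainly in one sex under the control of growth hormone, and many are strongest in the hepatocytes around the central vein.

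Day and library preparation cannot be told apart, because the labels name a KAPA capture kit for the day 9 libraries and a NeoPrep system for the day 13 libraries. Depth was 46912540 to 54538581 counts in the day 9 Eif3m siRNA libraries and 38783564 to 52012851 counts in their controls. It was 7650269 to 9630027 counts in the day 13 Eif3m siRNA libraries and 7775566 to 9222719 counts in their controls. All siRNA effects were taken within 1 day. Eif3m itself stood at 4.88, 4.78 and 4.71 CPM (counts scaled by library size) in the Eif3m siRNA libraries of day 9, against 45.1, 44.1 and 45.4 CPM in the controls. At day 13 it stood at 2.52, 2.41 and 2.19 CPM in the Eif3m siRNA libraries, against 39.8, 38.0 and 31.2 CPM in the controls. On the third principal component of the levels of all tested genes, the day 13 Eif3m siRNA libraries stood at -44.2, 41.2 and -0.75 and the day 13 controls at -18.6, -19.7 and 57.2, in the order of their replicate numbers. Control replicate 3 thus lay apart from its group, and Eif3m siRNA replicates 1 and 2 lay on opposite sides of theirs. Eif3m siRNA replicate 2 and control replicate 3, the pair high on that component, were left out together, a choice made after seeing the data, and every library was also left out singly.

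Marker genes of hepatocytes, the cells that make most of these enzymes, also differed. The summed level of 8 hepatocyte markers ran from 89670 to 96920 CPM in the Eif3m siRNA libraries and from 112500 to 119100 CPM in the controls at day 9, with 1 marker (Ttr) called lower, that is with an adjusted p under 0.05 in edgeR's quasi-likelihood test, and 0 higher. At day 13 it ran from 101100 to 161300 CPM in the Eif3m siRNA libraries and from 171000 to 196900 CPM in the controls, with 2 markers called lower (Alb and Ttr) and 1 higher (Tat). None of the 8 markers was at 0. Of 9 Kupffer cell markers, 3 were called lower at day 9 and 8 at day 13. Their summed level ran from 227.5 to 283.6 CPM in the Eif3m siRNA libraries against 322.4 to 391.9 CPM in the controls of day 9, and from 125.7 to 204.9 CPM in the Eif3m siRNA libraries against 295.4 to 384.2 CPM in the controls of day 13. Of 9 monocyte and macrophage markers, 4 were called higher at day 9 and 2 lower at day 13. Their sums were 113.3 to 130.2 CPM in the Eif3m siRNA libraries against 47.8 to 58.5 CPM in the controls of day 9, and 65.9 to 85.0 CPM in the Eif3m siRNA libraries against 109.3 to 151.2 CPM in the controls of day 13. Endothelial and stellate lists each had 1 marker called higher at day 9, and 3 and 2 called lower at day 13, of 8 each. At day 13, 1 of 6 cholangiocyte markers was called higher and 2 of 5 erythroid markers lower, and the neutrophil, T and NK cell and B cell lists had no call on either day. Of all tested genes, 6.84% were called lower and 5.94% higher at day 9, and 10.9% lower and 12.8% higher at day 13. The part of these marker shifts in the P450 results was not tested, and in whole liver fewer cells of a type and less RNA per cell cannot be told apart.

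More P450 genes fell than rose after Eif3m siRNA on both days, and their summed level was lower. Over all 80 members the summed level was 27750, 25990 and 30340 CPM after Eif3m siRNA, against 31390, 34660 and 33820 CPM in controls at day 9, or 84.2% of the control mean. At day 13 the sum was 24180, 22580 and 22580 CPM after Eif3m siRNA, against 29230, 30660 and 28350 CPM in controls, or 78.6% of the control mean. The 2 arms did not overlap on either day. The summed hepatocyte markers were lower in the same libraries, a sum in which Alb, the gene of serum albumin, takes the greatest part. The median log2 fold change of the 8 markers was 0.13 at day 9 and 0.05 at day 13.

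Counts were high enough to test 60 members, and the other 20 did not pass the filter on low counts. Of those 20, the 8 genes with no count in any library were Cyp2c66, Cyp2j7, Cyp2j11, Cyp2j12, Cyp2w1, Cyp4a29, Cyp4a30b and Cyp4x1. The 12 others were Cyp2b19, Cyp2b23, Cyp2c65, Cyp2d34, Cyp2j8, Cyp2j13, Cyp2t4, Cyp3a57, Cyp4f18, Cyp4f37, Cyp4f39 and Cyp4f40, and none of them had more than 29 counts in a library. Levels averaged at least 5 CPM in 50 members and at least 100 CPM in 32.

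With edgeR's quasi-likelihood test and Benjamini-Hochberg adjustment over all 14248 tested genes, 15 of the 60 members (25%) fell at day 9 at an adjusted p under 0.05, against 6.84% of all genes tested. At day 9, 3 members (5%) rose, against 5.94% of all genes. At day 13, 18 members (30%) fell, against 10.9% of all genes, and 11 (18.3%) rose, against 12.8% of all genes. The share that fell was thus above that of all genes on both days. The share that rose was close to it at day 9 and above it at day 13 under this filter. Among genes averaging at least 5 CPM, 8 of 50 members rose at day 13, where 1546 of 9313 genes did. In that setting 18 members and 1484 genes fell. Several of the day 13 rises are close copies that can share reads. The median log2 fold change of the 60 members was -0.22 at day 9, against 0.01 over all tested genes, and -0.08 at day 13, against 0.00. Cyp4a12b, which has no count in the day 13 controls, lies above the day 13 median at its fitted value and at its lower bound. Setting it at that bound therefore could not move the median. Without both day 13 libraries high on the third component, 64 members were tested. Of these, 20 fell and 3 rose at day 9, and 17 fell and 9 rose at day 13. Of the 15591 genes tested in that setting, 1628 fell and 1422 rose at day 9, and 1416 fell and 1702 rose at day 13.

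Each day had its own controls. Lower at both days were 11 genes, Cyp2a5, Cyp2a22, Cyp2b10, Cyp2c29, Cyp2c37, Cyp2c50, Cyp2c70, Cyp2g1, Cyp3a16, Cyp4f15 and Cyp4v3, which are 11 of the 15 at day 9 and 11 of the 18 at day 13. Higher at both were Cyp2u1, Cyp2c67 and Cyp2c68, all 3 of the day 9 rises and 3 of the 11 day 13 rises. No member was called in opposite directions on the 2 days, and 27 of the 60 were called on neither. Over all tested genes, 588 of the 975 called lower at day 9 were also called lower at day 13, where 1553 were, and 504 of the 846 called higher were also called higher, where 1824 were. In all, 47 genes were called in opposite directions and 10189 of 14248 on neither day. Whether the members differ from all genes in these overlaps was not tested. The values of the Eif3m siRNA libraries lay wholly below those of the controls in 28 of the 60 members at day 9 and 19 at day 13, where 21% and 16% of all tested genes did so. They lay wholly above in 4 members at day 9 and 14 at day 13, where 22.5% and 17.2% of all tested genes did so.

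**Figure D1:**
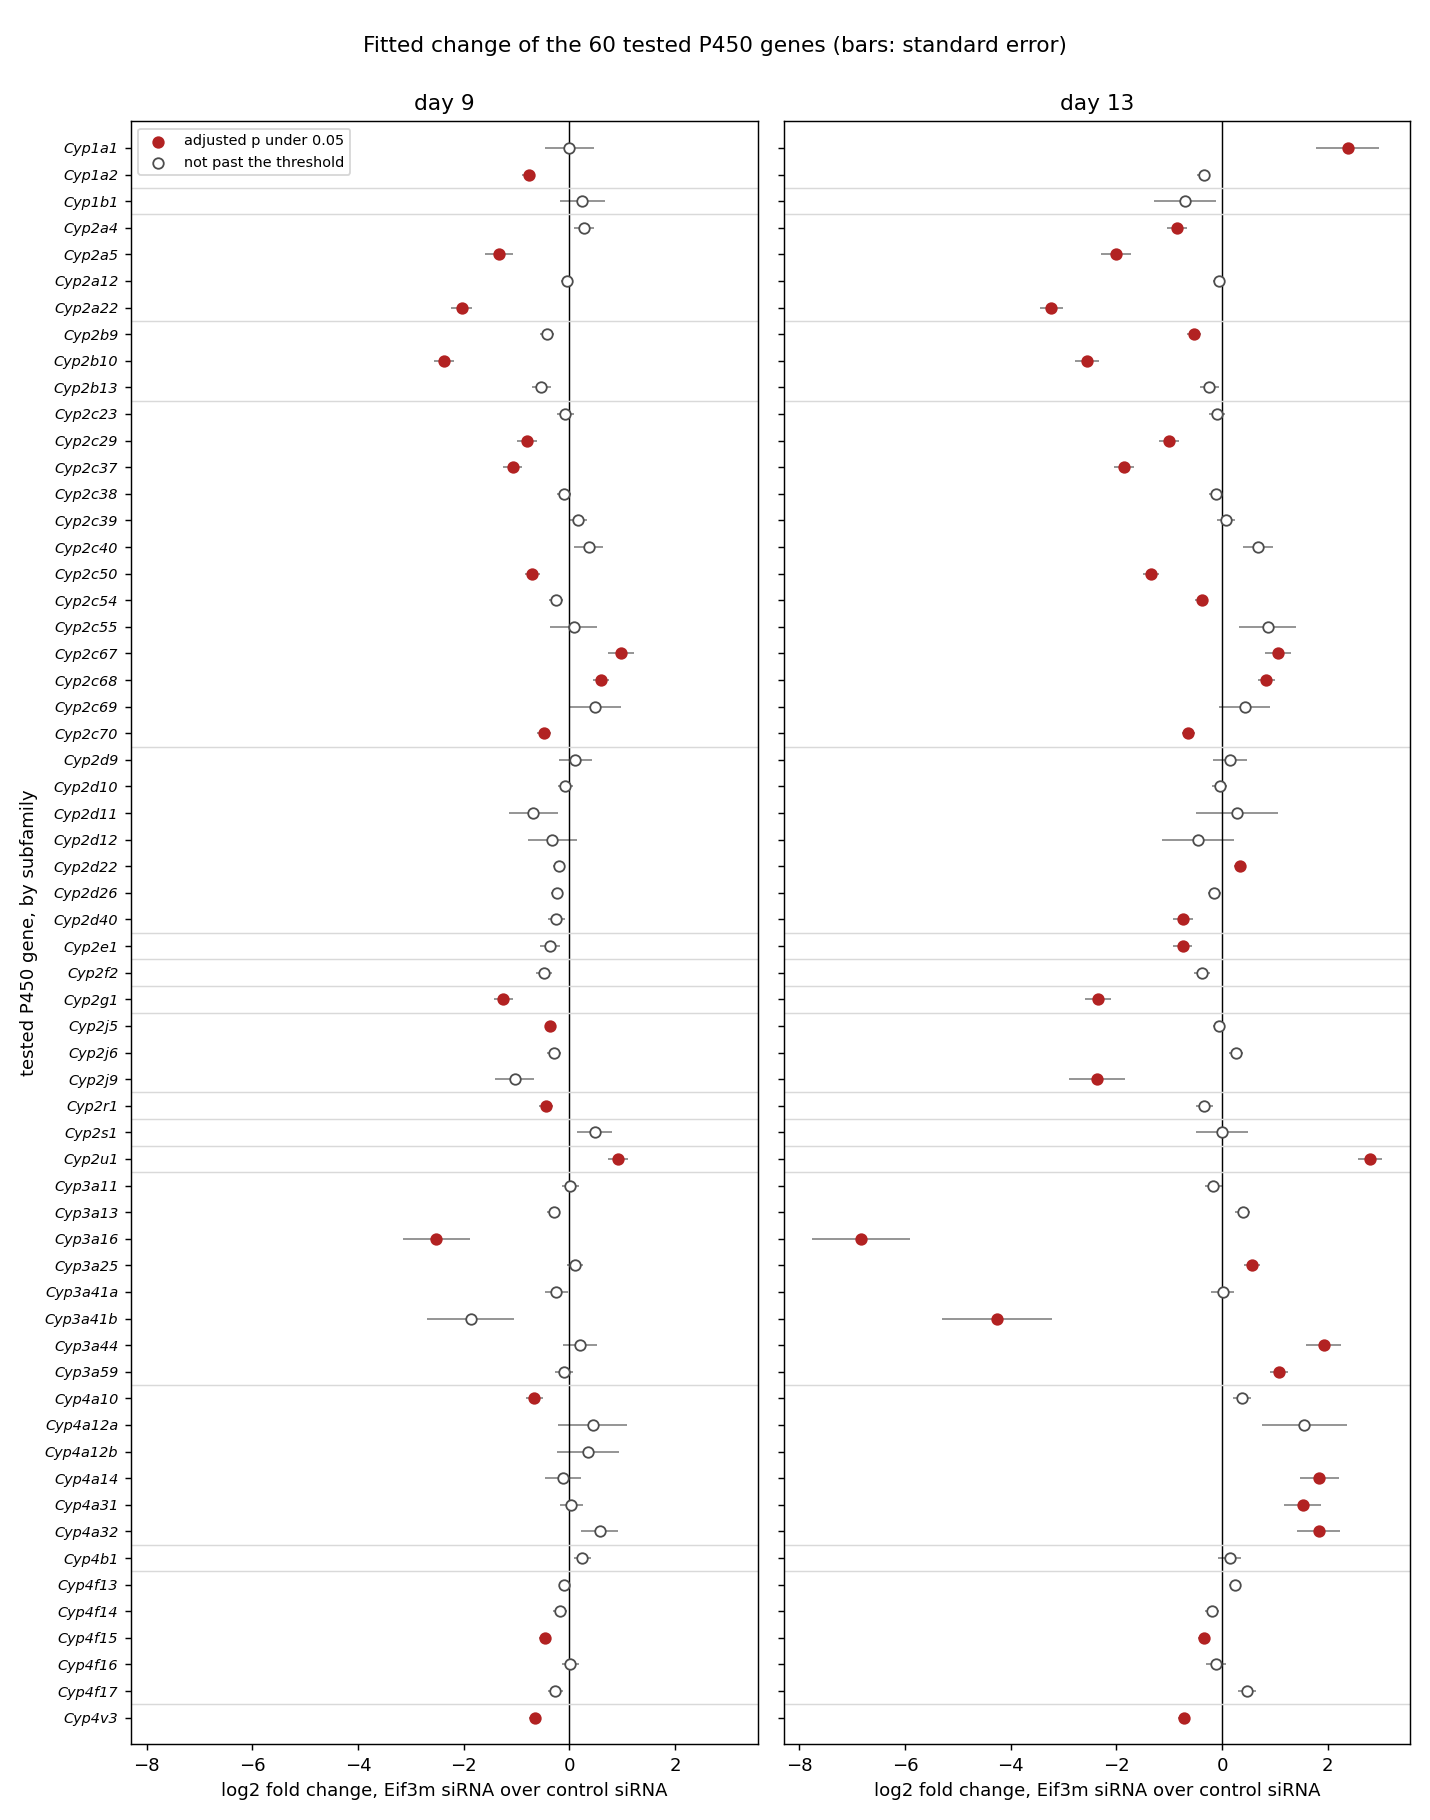
Fitted log2 fold change, Eif3m siRNA over control siRNA, of the 60 tested P450 genes at day 9 (left) and day 13 (right), grouped by subfamily. Filled points passed an adjusted p of 0.05, bars are standard errors, and Cyp4a12b is not drawn at day 13 because the controls had no count. Most filled points lie left of 0 on both days, and at day 13 Cyp3a16 lies farthest left at -6.83 and Cyp2u1 farthest right at 2.80.

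The most abundant enzymes did not have the largest fold changes. Per kilobase of transcript, a scale on which genes can be compared, the highest levels in the day 9 controls were Cyp2e1 at 4045 ± 537, Cyp3a11 at 1903 ± 226, Cyp3a41a at 1455 ± 282 and Cyp2c29 at 719 ± 23.4 CPM per kilobase (SD, n = 3). The ranges of mean ± SD did not overlap for Cyp3a11 and Cyp3a41a, nor for Cyp3a41a and Cyp2c29. In the day 13 controls Cyp2e1 (3831 ± 332) and Cyp3a11 (2469 ± 594) were again highest. Next came Cyp2c29 at 724 ± 139, Cyp2a4 at 723 ± 160 and Cyp3a41a at 594 ± 202, whose ranges overlapped. Of the P450 counts at day 9, Cyp2e1 took 20.5% ± 2.59 in the Eif3m siRNA libraries and 22.3% ± 2.67 in the controls (SD, n = 3 each). Cyp3a11 took 16.1% ± 1.02 in the Eif3m siRNA libraries and 13.4% ± 1.08 in the controls. At day 13 Cyp2e1 took 18% ± 3.57 in the Eif3m siRNA libraries and 23.9% ± 1.49 in the controls. Cyp3a11 then took 22.4% ± 0.301 in the Eif3m siRNA libraries and 19.6% ± 4.06 in the controls.

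Summed over each subfamily, a quantity that does not depend on how reads were divided between close copies, the difference was uneven. Cyp2a stood at 82.3% of the control mean at day 9 and 56.5% at day 13, Cyp2b at 70.5% and 72%, Cyp2c at 89.7% and 78.7%, and Cyp2e at 77.6% and 59.5%. In these 4 subfamilies the arms did not overlap on either day, apart from Cyp2c at day 9. Cyp3a stood at 91.9% and 96.4% and Cyp2d at 89.3% and 100%, with overlapping arms except for Cyp2d at day 9. Cyp4a differed in direction between the days, at 72.1% of the control mean at day 9 and 194% at day 13, with no overlap on either day.

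**Figure D2:**
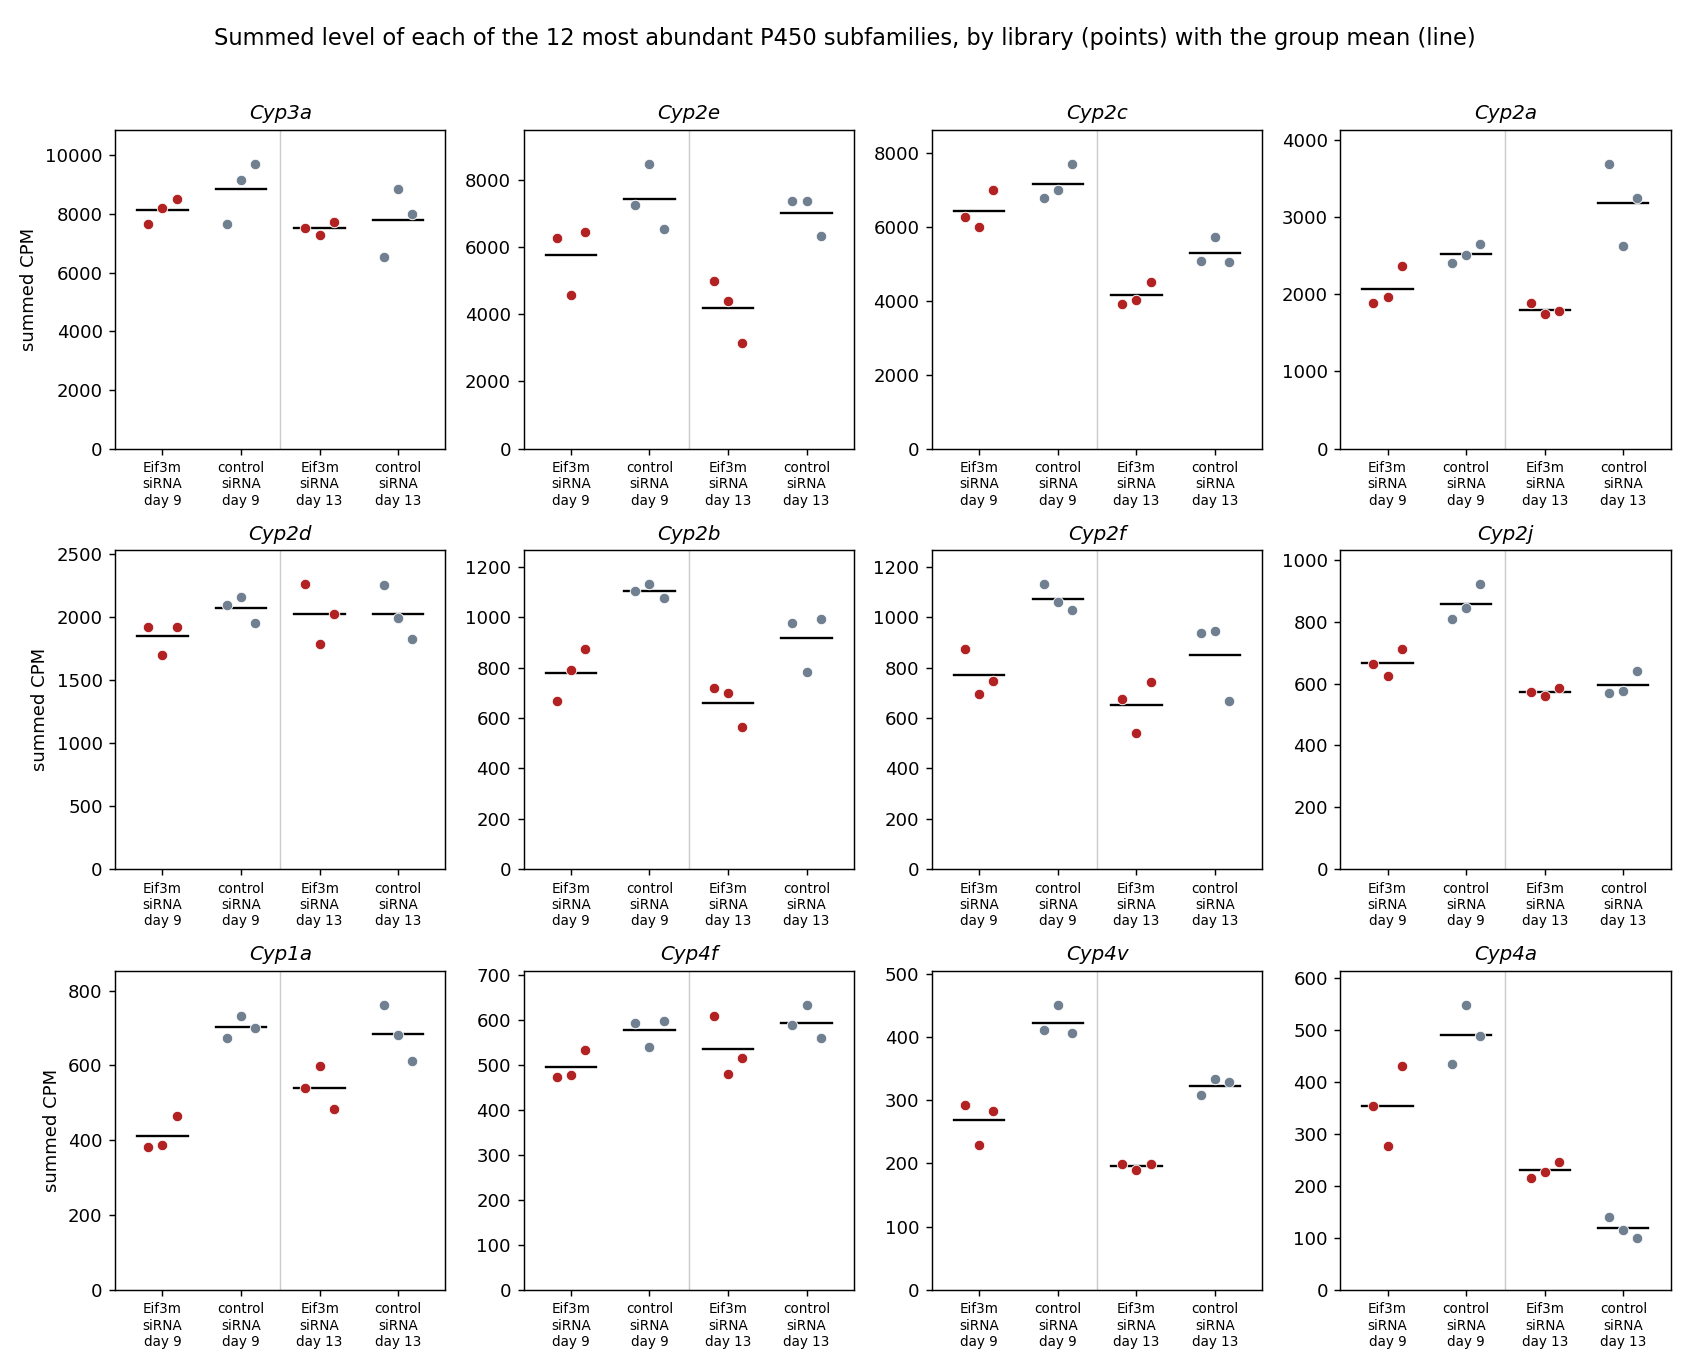
Summed CPM (linear axis from 0) of the 12 most abundant P450 subfamilies in each library, with the Eif3m siRNA group left of its control group on each day. Points are libraries and lines are group means. Cyp2e and Cyp2a lie lower in the Eif3m siRNA libraries on both days, Cyp3a overlaps, and Cyp4a lies lower at day 9 and higher at day 13.

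Family 1 held 3 tested genes, of which 1 fell at day 9 and 1 rose at day 13. Cyp1a2 (chr9:57676937-57683703, GRCm38), an abundant hepatocyte enzyme that oxidises caffeine and is a target of AHR, had 382, 386 and 464 CPM after Eif3m siRNA, against 672, 732 and 700.4 CPM in controls at day 9 (log2 fold change -0.77 ± 0.12, adjusted p = 0.00149). At day 13 Cyp1a2 had 538, 589.8 and 482 CPM after Eif3m siRNA, against 761, 681 and 609 CPM in controls (log2 fold change -0.35 ± 0.12, adjusted p = 0.055). The arms did not overlap on either day, and only the day 9 difference passed the threshold. Cyp1a1 (chr9:57687928-57703824), its neighbour and the most strongly AHR-responsive P450, was near 1 CPM at day 9 in all 6 libraries. At day 13 Cyp1a1 had 1.40, 9.27 and 2.63 CPM after Eif3m siRNA, against 0.673, 0.712 and 1.19 CPM in controls (log2 fold change 2.38 ± 0.60, adjusted p = 0.0119). The rise rested largely on Eif3m siRNA replicate 2, without which the log2 fold change was 1.21 (adjusted p = 0.054), and it was 1.55 without both day 13 libraries high on the third component (adjusted p = 0.0366). The call was also lost without control replicate 1 (adjusted p = 0.0514), with limma-voom (adjusted p = 0.0681) and with the day fitted alone (adjusted p = 0.0649). Cyp1b1, expressed mainly outside the liver, stayed between 0.438 and 1.99 CPM in all 12 libraries.

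On chromosome 7 the Cyp2a, Cyp2b and Cyp2g genes form an array in which the direction of every call was down. Cyp2b10 (chr7:25897620-25926624), the classical mouse target of CAR and of phenobarbital, had 6.69, 7.92 and 8.16 CPM after Eif3m siRNA, against 39.8, 38.1 and 39.3 CPM in controls at day 9 (log2 fold change -2.36 ± 0.19, adjusted p = 1.43e-05). At day 13 Cyp2b10 had 6.29, 6.12 and 3.18 CPM after Eif3m siRNA, against 36.7, 23.1 and 31.2 CPM in controls (log2 fold change -2.55 ± 0.22, adjusted p = 6.79e-06). The Eif3m siRNA libraries lay far below the controls on both days, at 19.4% and 17.1% of the control mean. Its neighbours Cyp2b9 and Cyp2b13, which in mice are made mainly in females, had smaller log2 fold changes. Cyp2b9 had 374, 489 and 523 CPM after Eif3m siRNA, against 584, 631 and 643 CPM in controls at day 9 (log2 fold change -0.42 ± 0.14, adjusted p = 0.0576). At day 13 Cyp2b9 had 419.6, 456 and 392 CPM after Eif3m siRNA, against 621, 534 and 678 CPM in controls (log2 fold change -0.53 ± 0.14, adjusted p = 0.0117), and the call was lost without Eif3m siRNA replicate 3 (adjusted p = 0.0513). Cyp2b13 did not pass the threshold on either day, with log2 fold changes of -0.53 (adjusted p = 0.0674) and -0.24 (adjusted p = 0.362).

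Cyp2a22 (chr7:26931631-26939384), a Cyp2a gene between Cyp2a5 and Cyp2a12 in the array, was among the members that fell most. It had 16.3, 14 and 12.6 CPM after Eif3m siRNA, against 68.1, 47.1 and 61.5 CPM in controls at day 9 (log2 fold change -2.04 ± 0.19, adjusted p = 5.46e-05). At day 13 Cyp2a22 had 14.8, 20.8 and 14.9 CPM after Eif3m siRNA, against 193, 121 and 161 CPM in controls (log2 fold change -3.23 ± 0.21, adjusted p = 1.18e-06). The Eif3m siRNA libraries held similar levels on both days and the controls were higher at day 13. Cyp2a12, a testosterone hydroxylase with 96.95% identical coding bases, did not pass the threshold, with log2 fold changes of -0.04 (adjusted p = 0.856) at day 9 and -0.06 (adjusted p = 0.762) at day 13. Reads of Cyp2a22 and the more abundant Cyp2a12 can be divided wrongly between them. Their sum stood at 92.1% of the control mean at day 9 and 83.4% at day 13, with no overlap on either day. Cyp2g1 (chr7:26808892-26821205), known best from the olfactory mucosa, had 9.70, 6.95 and 10.7 CPM after Eif3m siRNA, against 19.4, 21.2 and 24.3 CPM in controls at day 9 (log2 fold change -1.25 ± 0.17, adjusted p = 0.000602). At day 13 Cyp2g1 had 1.40, 2.32 and 2.41 CPM after Eif3m siRNA, against 12.4, 10.1 and 9.64 CPM in controls (log2 fold change -2.35 ± 0.24, adjusted p = 2.17e-05). Its arms did not overlap on either day.

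Cyp2a5, the mouse coumarin hydroxylase, and Cyp2a4, a testosterone hydroxylase made mainly in females, are 98.45% identical over their coding bases. Cyp2a5 (chr7:26835305-26843548) had 327, 305 and 433 CPM after Eif3m siRNA, against 881, 959 and 841 CPM in controls at day 9 (log2 fold change -1.33 ± 0.27, adjusted p = 0.00759). At day 13 Cyp2a5 had 253, 259 and 128 CPM after Eif3m siRNA, against 1014, 570.0 and 988 CPM in controls (log2 fold change -2.01 ± 0.28, adjusted p = 0.000307). Every Eif3m siRNA library lay below every control on both days. Cyp2a4 (chr7:26307169-26315088) had 774, 888 and 1155 CPM after Eif3m siRNA, against 682, 693 and 964 CPM in controls at day 9 (log2 fold change 0.27 ± 0.19, adjusted p = 0.386), where the arms overlapped. At day 13 Cyp2a4 had 699, 702 and 682 CPM after Eif3m siRNA, against 1517, 963 and 1289 CPM in controls (log2 fold change -0.86 ± 0.19, adjusted p = 0.00501), where they did not. Because reads of such copies can be divided wrongly between them, their sum was also taken, and it stood at 77.4% of the control mean at day 9, with overlapping arms, and at 43% at day 13, without overlap. An antisense gene, Gm42375, shares 61 exon bases with Cyp2a4 and was itself lower on both days (log2 fold changes -0.77 and -2.22). Since the strand setting of the counting is not known, reads of the pair cannot be told apart in that stretch.

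The start regions of this pair are shown because 1 gene was called at day 9 and the other was not, while their sequences nearly match. Both windows run from 250 bases before the start to 50 after it, from RefSeq on GRCm38.p6, on the plus strand at chr7:26835089-26835388 and chr7:26306942-26307241. They are of the reference mouse and not of FVB/N. With gap positions counted, 97.7% of the alignment is identical, and capitals mark the bases that differ from, or are absent in, the other gene's window.
Cyp2a5: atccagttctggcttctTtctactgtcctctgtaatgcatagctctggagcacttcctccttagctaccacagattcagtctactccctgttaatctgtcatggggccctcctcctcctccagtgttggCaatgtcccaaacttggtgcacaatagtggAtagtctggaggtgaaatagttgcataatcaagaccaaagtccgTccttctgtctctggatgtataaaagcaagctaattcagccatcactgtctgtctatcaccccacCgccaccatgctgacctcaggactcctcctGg
Cyp2a4: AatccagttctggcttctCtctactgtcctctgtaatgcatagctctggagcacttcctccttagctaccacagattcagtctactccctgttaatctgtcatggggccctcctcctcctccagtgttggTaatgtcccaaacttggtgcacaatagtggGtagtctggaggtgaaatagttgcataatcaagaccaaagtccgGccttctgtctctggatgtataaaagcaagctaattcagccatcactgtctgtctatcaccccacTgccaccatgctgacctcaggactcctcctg

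The Cyp2c genes of chromosome 19, many of which epoxidise arachidonic acid, differed in direction between adjoining blocks. Cyp2c37, Cyp2c54 and Cyp2c50, which stand side by side and are 95.1% to 96.12% identical over their coding bases, all fell at day 13. Cyp2c37 (chr19:39992424-40012243) had 253, 163 and 249.9 CPM after Eif3m siRNA, against 424, 459 and 519.8 CPM in controls at day 9 (log2 fold change -1.08 ± 0.18, adjusted p = 0.00195). At day 13 Cyp2c37 had 106, 118 and 84.2 CPM after Eif3m siRNA, against 387, 310.1 and 419.9 CPM in controls (log2 fold change -1.86 ± 0.19, adjusted p = 1.65e-05). Cyp2c50 (chr19:40089688-40113950) had 623, 388 and 544 CPM after Eif3m siRNA, against 844, 883 and 802 CPM in controls at day 9 (log2 fold change -0.70 ± 0.14, adjusted p = 0.00611). At day 13 Cyp2c50 had 247, 237 and 248 CPM after Eif3m siRNA, against 635, 624 and 602 CPM in controls (log2 fold change -1.35 ± 0.15, adjusted p = 2.97e-05). Neither gene overlapped between arms on either day. Cyp2c54 had the smallest change, with log2 fold changes of -0.26 (adjusted p = 0.214) at day 9 and -0.39 (adjusted p = 0.0424) at day 13, and its day 13 call was lost without any 1 of the 3 Eif3m siRNA libraries or without control replicate 1 or 2 (adjusted p from 0.0742 to 0.148), without both day 13 libraries high on the third component (adjusted p = 0.0501), with no filter on low counts (adjusted p = 0.0591) and with the day fitted alone (adjusted p = 0.0655). The sum of the 3 genes was 1358, 898 and 1256 CPM after Eif3m siRNA, against 1769, 1901 and 1802 CPM in controls at day 9. At day 13 it was 531, 539 and 518 CPM after Eif3m siRNA, against 1257, 1196 and 1241 CPM in controls.

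The adjoining genes Cyp2c67, Cyp2c68, Cyp2c40 and Cyp2c69, at least 96.54% identical to one another, had positive fold changes on both days. Cyp2c68 (chr19:39688834-39741054) had 368, 400.3 and 411 CPM after Eif3m siRNA, against 253, 258 and 268 CPM in controls at day 9 (log2 fold change 0.60 ± 0.16, adjusted p = 0.0244). At day 13 Cyp2c68 had 487, 377 and 596 CPM after Eif3m siRNA, against 234, 326 and 258 CPM in controls (log2 fold change 0.84 ± 0.16, adjusted p = 0.00183). Cyp2c67 (chr19:39608842-39649051) had 293, 224 and 207 CPM after Eif3m siRNA, against 142, 127 and 98.7 CPM in controls at day 9 (log2 fold change 0.98 ± 0.24, adjusted p = 0.0198). At day 13 Cyp2c67 had 167, 160.3 and 220 CPM after Eif3m siRNA, against 79, 124 and 59.6 CPM in controls (log2 fold change 1.06 ± 0.25, adjusted p = 0.00779). Both genes were higher in every Eif3m siRNA library than in every control of the same day. Cyp2c40 and Cyp2c69 did not pass the threshold, with log2 fold changes of 0.36 (adjusted p = 0.438) and 0.49 (adjusted p = 0.561) at day 9 and of 0.68 (adjusted p = 0.0998) and 0.43 (adjusted p = 0.572) at day 13. The sum of the 4 copies stood at 141% of the control mean at day 9 and 166% at day 13, with no overlap. At day 9 the Cyp2c68 call was lost without any 1 of the 6 libraries of that day (adjusted p from 0.0532 to 0.0755), and the Cyp2c67 call without Eif3m siRNA replicate 1 or 2 or control replicate 2 or 3 (adjusted p from 0.0501 to 0.0834) and with no filter on low counts (adjusted p = 0.0545).

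Of the other Cyp2c genes, Cyp2c29 and Cyp2c70 fell on both days. Cyp2c29 (chr19:39269405-39330713), an arachidonic acid epoxygenase, had 608, 736 and 864 CPM after Eif3m siRNA, against 1250.1, 1266 and 1329 CPM in controls at day 9 (log2 fold change -0.80 ± 0.18, adjusted p = 0.0122). At day 13 Cyp2c29 had 725, 730.0 and 477 CPM after Eif3m siRNA, against 1222, 1566 and 1084 CPM in controls (log2 fold change -1.0 ± 0.18, adjusted p = 0.0015). Its arms did not overlap on either day, and the day 9 call was lost without Eif3m siRNA replicate 1 (adjusted p = 0.0596). Cyp2c70 (chr19:40153353-40187333), the enzyme that makes the muricholic bile acids of mice, had 657, 746 and 627 CPM after Eif3m siRNA, against 959.7, 894 and 982 CPM in controls at day 9 (log2 fold change -0.48 ± 0.13, adjusted p = 0.0245). At day 13 Cyp2c70 had 621, 571 and 565 CPM after Eif3m siRNA, against 824, 1085 and 825 CPM in controls (log2 fold change -0.64 ± 0.13, adjusted p = 0.00266). Its arms did not overlap either, and the day 9 call was lost without Eif3m siRNA replicate 1 or 3 or control replicate 1 or 3 (adjusted p from 0.0774 to 0.0987). Cyp2c23, Cyp2c38, Cyp2c39 and Cyp2c55 did not pass on either day, with log2 fold changes between -0.11 and 0.17 apart from Cyp2c55 at day 13, which was below 5 CPM and had 0.86 (adjusted p = 0.27).

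**Figure D3:**
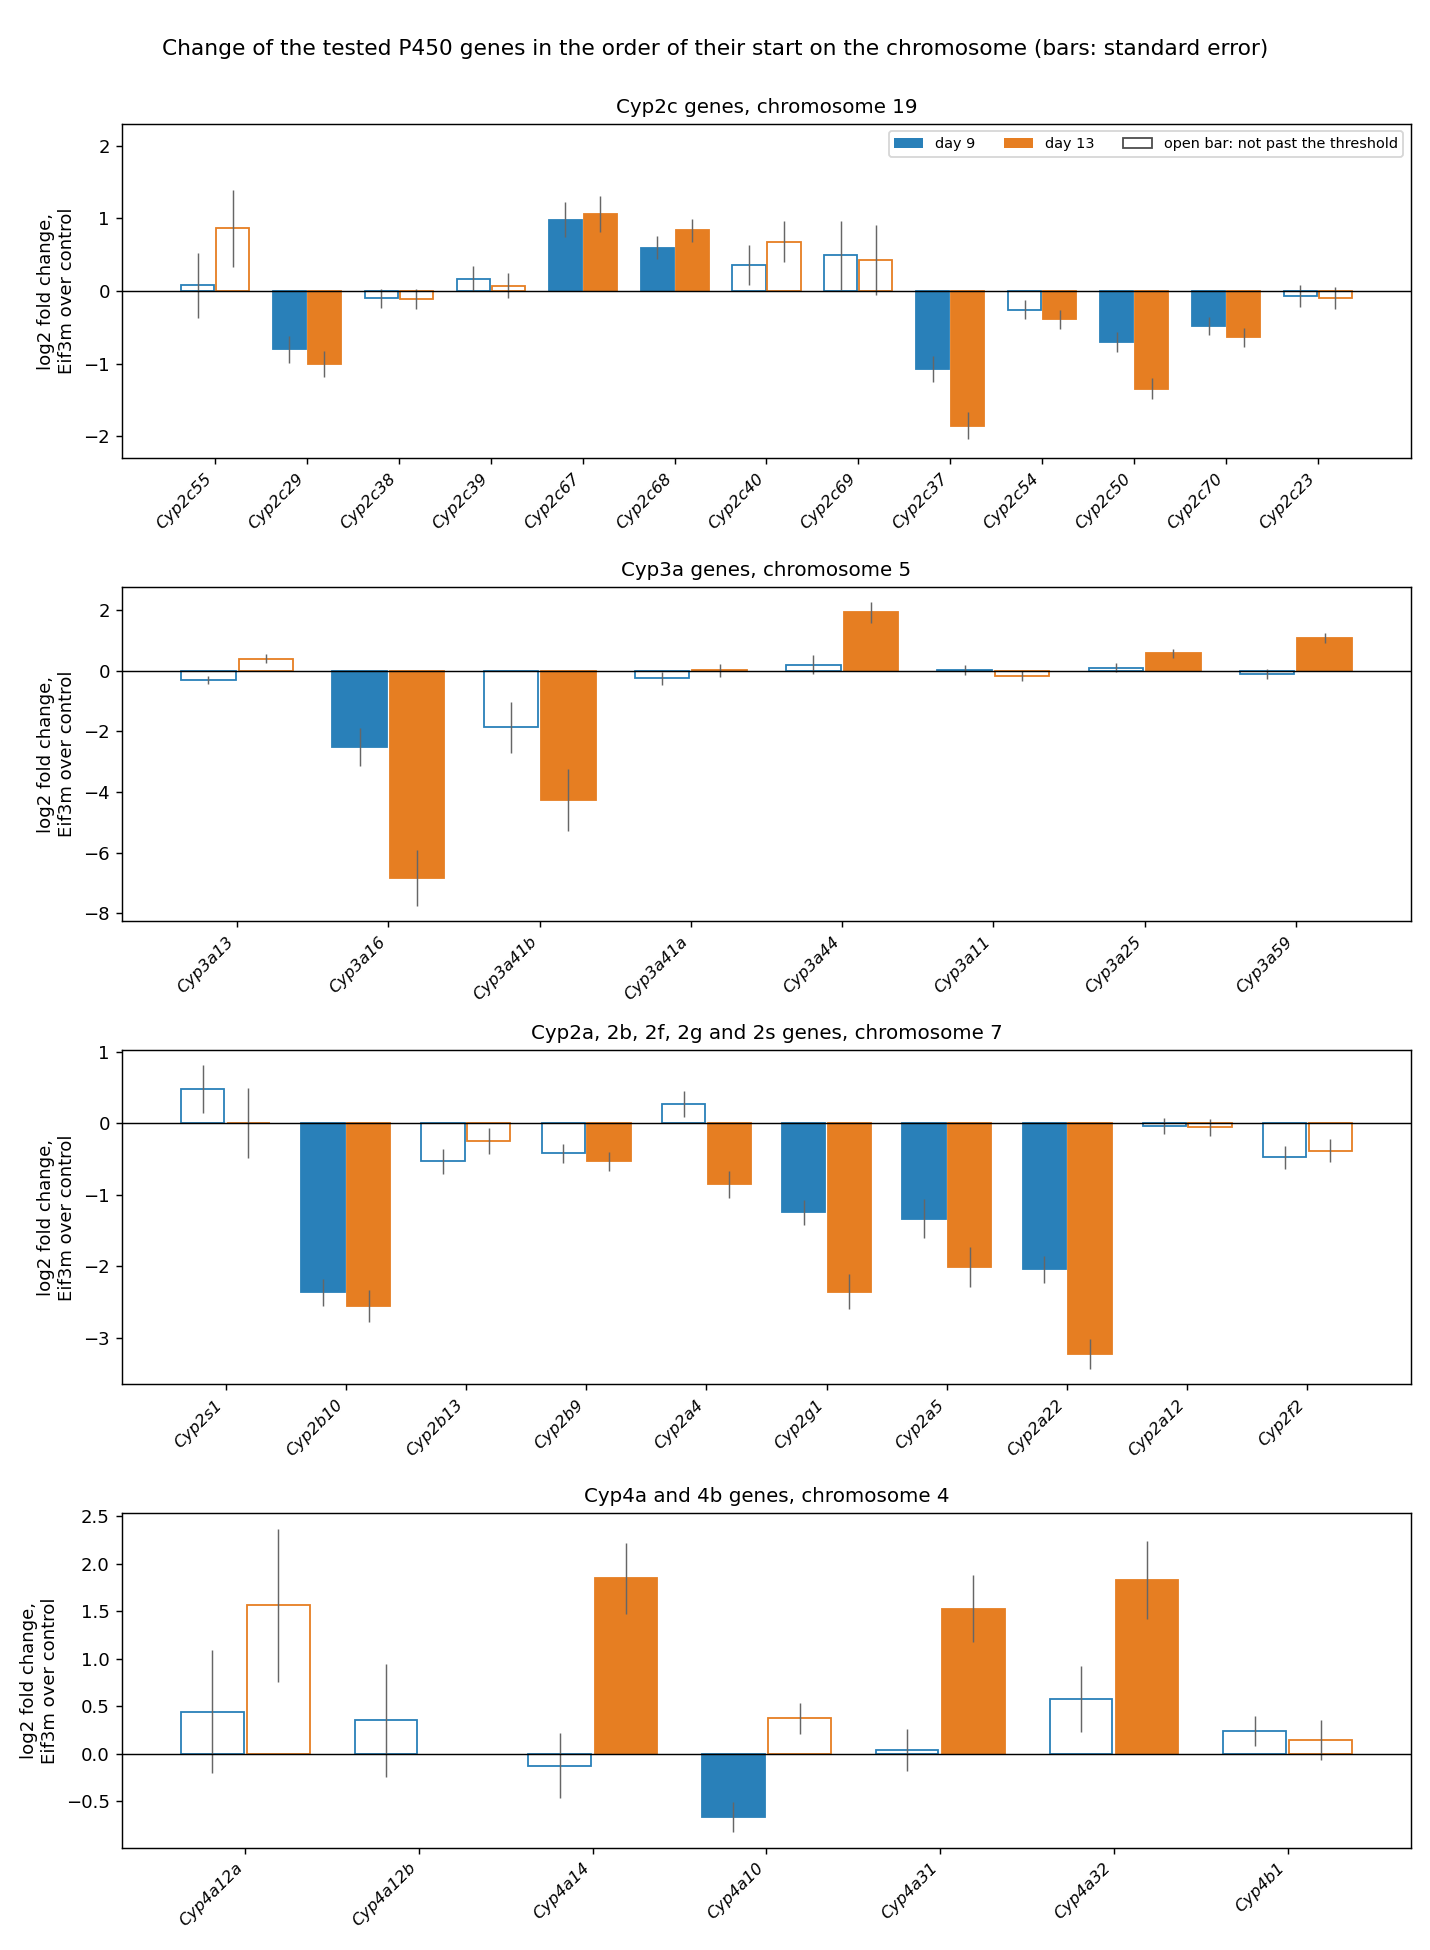
Log2 fold change, Eif3m siRNA over control siRNA, of the tested genes of 4 P450 arrays in the order of their start on the chromosome, at day 9 and day 13. Filled bars passed an adjusted p of 0.05, open bars did not, thin lines are standard errors, and Cyp4a12b is not drawn at day 13. On chromosome 19 Cyp2c67 to Cyp2c69 lie above 0 and Cyp2c37 to Cyp2c70 below it, and on chromosome 5 Cyp3a16 and Cyp3a41b lie below 0 and Cyp3a44 above it at day 13.

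Cyp2e1 (chr7:140763739-140774987), which oxidises ethanol and acetaminophen and is the most abundant P450 here, had 6266, 4566 and 6439.6 CPM after Eif3m siRNA, against 7251, 8472 and 6522 CPM in controls at day 9 (log2 fold change -0.37 ± 0.18, adjusted p = 0.214). At day 13 Cyp2e1 had 5002, 4386 and 3154 CPM after Eif3m siRNA, against 7378, 7368 and 6318 CPM in controls (log2 fold change -0.75 ± 0.18, adjusted p = 0.00903). The arms were separate on both days, and the difference passed the threshold at day 13. Cyp2f2, which activates naphthalene, did not pass on either day, with log2 fold changes of -0.48 (adjusted p = 0.0617) and -0.38 (adjusted p = 0.0951).

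Cyp2u1 (chr3:131288441-131303227), a fatty acid hydroxylase described mainly in brain and thymus, had the largest rise among the members that kept their call under every alternative. It had 34.3, 35.5 and 28.4 CPM after Eif3m siRNA, against 22.7, 15.8 and 13.3 CPM in controls at day 9 (log2 fold change 0.93 ± 0.19, adjusted p = 0.00639). At day 13 Cyp2u1 had 41.3, 45.6 and 45 CPM after Eif3m siRNA, against 5.25, 4.99 and 8.45 CPM in controls (log2 fold change 2.80 ± 0.23, adjusted p = 4.45e-06). The 2 arms were apart on both days, and the control libraries were lower at day 13 than at day 9. The antisense gene 4930534D22Rik overlaps 548 of its exon bases but averaged at most 0.159 CPM in any group.

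Of the Cyp2j, Cyp2r and Cyp2s genes tested, 2 fell at day 9 and 1 at day 13, with no rise. Cyp2j5, an arachidonic acid epoxygenase of kidney and liver, had 613, 578 and 661 CPM after Eif3m siRNA, against 747, 787 and 854 CPM in controls at day 9 (log2 fold change -0.37 ± 0.10, adjusted p = 0.0328), with no overlap, and a log2 fold change of -0.07 (adjusted p = 0.701) at day 13. Its call was lost without Eif3m siRNA replicate 1 or 2 or without any 1 of the 3 controls of day 9 (adjusted p from 0.0538 to 0.13), and with no filter on low counts (adjusted p = 0.0727). Cyp2j9 had 2.04, 2.55 and 1.78 CPM after Eif3m siRNA, against 7.02, 3.67 and 2.46 CPM in controls at day 9 (log2 fold change -1.04 ± 0.37, adjusted p = 0.084). At day 13 Cyp2j9 had 0.699, 1.02 and 1.20 CPM after Eif3m siRNA, against 6.06, 7.12 and 2.49 CPM in controls (log2 fold change -2.36 ± 0.54, adjusted p = 0.00665), where every Eif3m siRNA library was below every control. This call was lost with limma-voom (log2 fold change -2.16, adjusted p = 0.0848). Cyp2j6 passed on neither day, with log2 fold changes of -0.29 (adjusted p = 0.165) and 0.26 (adjusted p = 0.191). Cyp2r1, a vitamin D hydroxylase, had 10.8, 11.6 and 13.3 CPM after Eif3m siRNA, against 14.2, 16.1 and 18 CPM in controls at day 9 (log2 fold change -0.44 ± 0.13, adjusted p = 0.0438). The call was lost without any 1 of the 3 Eif3m siRNA libraries of day 9, control replicate 2 or 3 of day 9, Eif3m siRNA replicate 3 of day 13 or control replicate 2 of day 13 (adjusted p from 0.0518 to 0.168), and with no filter on low counts (adjusted p = 0.0535). Cyp2s1 stayed under 1 CPM in all 12 libraries.

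The Cyp2d genes, which with human CYP2D enzymes share the oxidation of many amine drugs, held 7 tested members with no call at day 9. Cyp2d40 fell at day 13, with 9.93, 5.66 and 6.57 CPM after Eif3m siRNA, against 13.6, 12.3 and 10.6 CPM in controls (log2 fold change -0.74 ± 0.19, adjusted p = 0.0128). It lost its call without Eif3m siRNA replicate 2 or 3 or control replicate 1 (adjusted p from 0.0511 to 0.0573), and with the day fitted alone (adjusted p = 0.0574). Cyp2d22 rose at day 13, with 499.9, 399 and 454 CPM after Eif3m siRNA, against 402, 324 and 344 CPM in controls (log2 fold change 0.34 ± 0.12, adjusted p = 0.048), where 2 of the 3 Eif3m siRNA libraries exceeded all controls. That call was lost under 16 of 21 alternatives, among them 10 of the 12 that left out a library. Cyp2d10 and Cyp2d26 were abundant and did not pass, with log2 fold changes of -0.08 and -0.24 at day 9 and -0.04 and -0.14 at day 13. Cyp2d9, a testosterone hydroxylase made mainly in males, ranged from 14.1 to 79.4 CPM over the 12 libraries and overlapped between arms. Cyp2d11 and Cyp2d12 stayed under 1 CPM.

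Cyp3a genes diverged within 1 array on chromosome 5 while the arms overlapped in their sum. Cyp3a16 (chr5:145436309-145469723), described in mice mainly before weaning and in females, had 30.5, 31.9 and 29.6 CPM after Eif3m siRNA, against 102, 119.8 and 305 CPM in controls at day 9 (log2 fold change -2.52 ± 0.63, adjusted p = 0.0327). At day 13 Cyp3a16 had 0.420, 0.371 and 2.74 CPM after Eif3m siRNA, against 119, 48 and 238 CPM in controls (log2 fold change -6.83 ± 0.93, adjusted p = 0.00084), from 3, 4 and 25 counts in the Eif3m siRNA libraries. It was the deepest fall of any member, with no overlap on either day. Cyp3a44 (chr5:145773983-145805874), also made mainly in females, had 189, 379 and 288 CPM after Eif3m siRNA, against 174, 192 and 378 CPM in controls at day 9 (log2 fold change 0.20 ± 0.32, adjusted p = 0.739), where the arms overlapped. At day 13 Cyp3a44 had 385, 352 and 524 CPM after Eif3m siRNA, against 128, 88.1 and 117 CPM in controls (log2 fold change 1.92 ± 0.34, adjusted p = 0.00209), where every Eif3m siRNA library exceeded every control.

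The start regions of Cyp3a16 and Cyp3a44 are shown because these genes of the same array moved in opposite directions at day 13. Cyp3a41a and Cyp3a41b lie between them. Both windows are of the minus strand, from RefSeq on GRCm38.p6, at chr5:145469674-145469973 and chr5:145805825-145806124, and run from 250 bases before the start to 50 after it. They are 93.4% identical over the alignment with gap positions counted, and capitals mark the 16 bases of each that differ from, or are absent in, the other window, in the reference mouse.
Cyp3a16: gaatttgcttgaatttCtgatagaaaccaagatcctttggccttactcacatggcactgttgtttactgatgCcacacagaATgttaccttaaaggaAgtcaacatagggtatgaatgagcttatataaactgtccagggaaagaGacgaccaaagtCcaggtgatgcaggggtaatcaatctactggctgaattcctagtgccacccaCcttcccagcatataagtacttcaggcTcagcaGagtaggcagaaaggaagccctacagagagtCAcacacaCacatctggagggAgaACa
Cyp3a44: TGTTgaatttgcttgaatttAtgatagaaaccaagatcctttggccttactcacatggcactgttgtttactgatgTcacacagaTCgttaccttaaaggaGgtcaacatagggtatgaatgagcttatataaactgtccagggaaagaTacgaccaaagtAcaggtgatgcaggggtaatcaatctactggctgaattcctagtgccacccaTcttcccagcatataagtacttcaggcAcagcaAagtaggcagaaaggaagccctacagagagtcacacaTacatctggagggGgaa

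The Cyp3a16 value leaned on single libraries, and the log2 fold change was -1.85 at day 9 without control replicate 3 (adjusted p = 0.0915). The day 9 call was also lost without any 1 of the 3 Eif3m siRNA libraries (adjusted p up to 0.0985) and with no filter on low counts (adjusted p = 0.0694). At day 13 the log2 fold change was -8.43 without Eif3m siRNA replicate 3 (adjusted p = 0.00275), -6.16 without control replicate 3 (adjusted p = 0.00204) and -5.63 without both day 13 libraries high on the third component (adjusted p = 0.0114).

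Cyp3a41a and Cyp3a41b, female-predominant copies with 99.87% identical coding bases, cannot be told apart with confidence in such counts. Cyp3a41b had 0, 6.86 and 4.82 CPM after Eif3m siRNA, against 49.1, 21.4 and 168 CPM in controls at day 13 (log2 fold change -4.26 ± 1.03, adjusted p = 0.0176). The more abundant copy Cyp3a41a had 1228, 1042 and 1434 CPM after Eif3m siRNA, against 1222, 808 and 1642 CPM in controls (log2 fold change 0.01 ± 0.22, adjusted p = 0.978). At day 9 neither passed, with log2 fold changes of -1.87 (adjusted p = 0.185) for Cyp3a41b and -0.25 (adjusted p = 0.508) for Cyp3a41a. The Cyp3a41b value at day 13 was -4.93 without Eif3m siRNA replicate 2 (adjusted p = 0.0425) and -3.10 without control replicate 3 (adjusted p = 0.0488). Its call was lost without Eif3m siRNA replicate 3 (adjusted p = 0.0618), without both day 13 libraries high on the third component (adjusted p = 0.0723), with limma-voom (adjusted p = 0.141) and with the day fitted alone (adjusted p = 0.103). Summed with Cyp3a11 and Cyp3a44, the other copies at about 95% identity, the level stood at 92.4% of the control mean at day 9 and 94.8% at day 13, with overlapping arms.

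Cyp3a11 (chr5:145854426-145879964), the main drug-oxidising Cyp3a enzyme of mouse liver and a target of PXR, had 4160.1, 4419.6 and 4948 CPM after Eif3m siRNA, against 4061, 5061 and 4258 CPM in controls at day 9 (log2 fold change 0.02 ± 0.16, adjusted p = 0.964). At day 13 Cyp3a11 had 5325, 5089 and 5090.3 CPM after Eif3m siRNA, against 4644, 7339.5 and 5381 CPM in controls (log2 fold change -0.16 ± 0.16, adjusted p = 0.502). The arms overlapped on both days. Cyp3a59 (chr5:146079257-146113287) had 48.8, 52.6 and 47.8 CPM after Eif3m siRNA, against 53.5, 56.6 and 50.4 CPM in controls at day 9 (log2 fold change -0.10 ± 0.16, adjusted p = 0.735). At day 13 Cyp3a59 had 46.6, 72.4 and 59.7 CPM after Eif3m siRNA, against 22.5, 36.2 and 26.4 CPM in controls (log2 fold change 1.08 ± 0.18, adjusted p = 0.000653), and the arms were apart. Its close copy Cyp3a25 had 520.3, 688 and 573 CPM after Eif3m siRNA, against 319.8, 489 and 389 CPM in controls at day 13 (log2 fold change 0.57 ± 0.15, adjusted p = 0.0145), again without overlap. This call was lost without Eif3m siRNA replicate 2 or control replicate 1 (adjusted p from 0.0614 to 0.0639), without both day 13 libraries high on the third component (adjusted p = 0.0983) and with the day fitted alone (adjusted p = 0.0614). The sum of Cyp3a25 and Cyp3a59 was 567, 760.5 and 633 CPM after Eif3m siRNA, against 342, 526 and 415 CPM in controls at day 13. Cyp3a13 did not pass, with log2 fold changes of -0.30 (adjusted p = 0.148) and 0.39 (adjusted p = 0.0599).

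**Figure D4:**
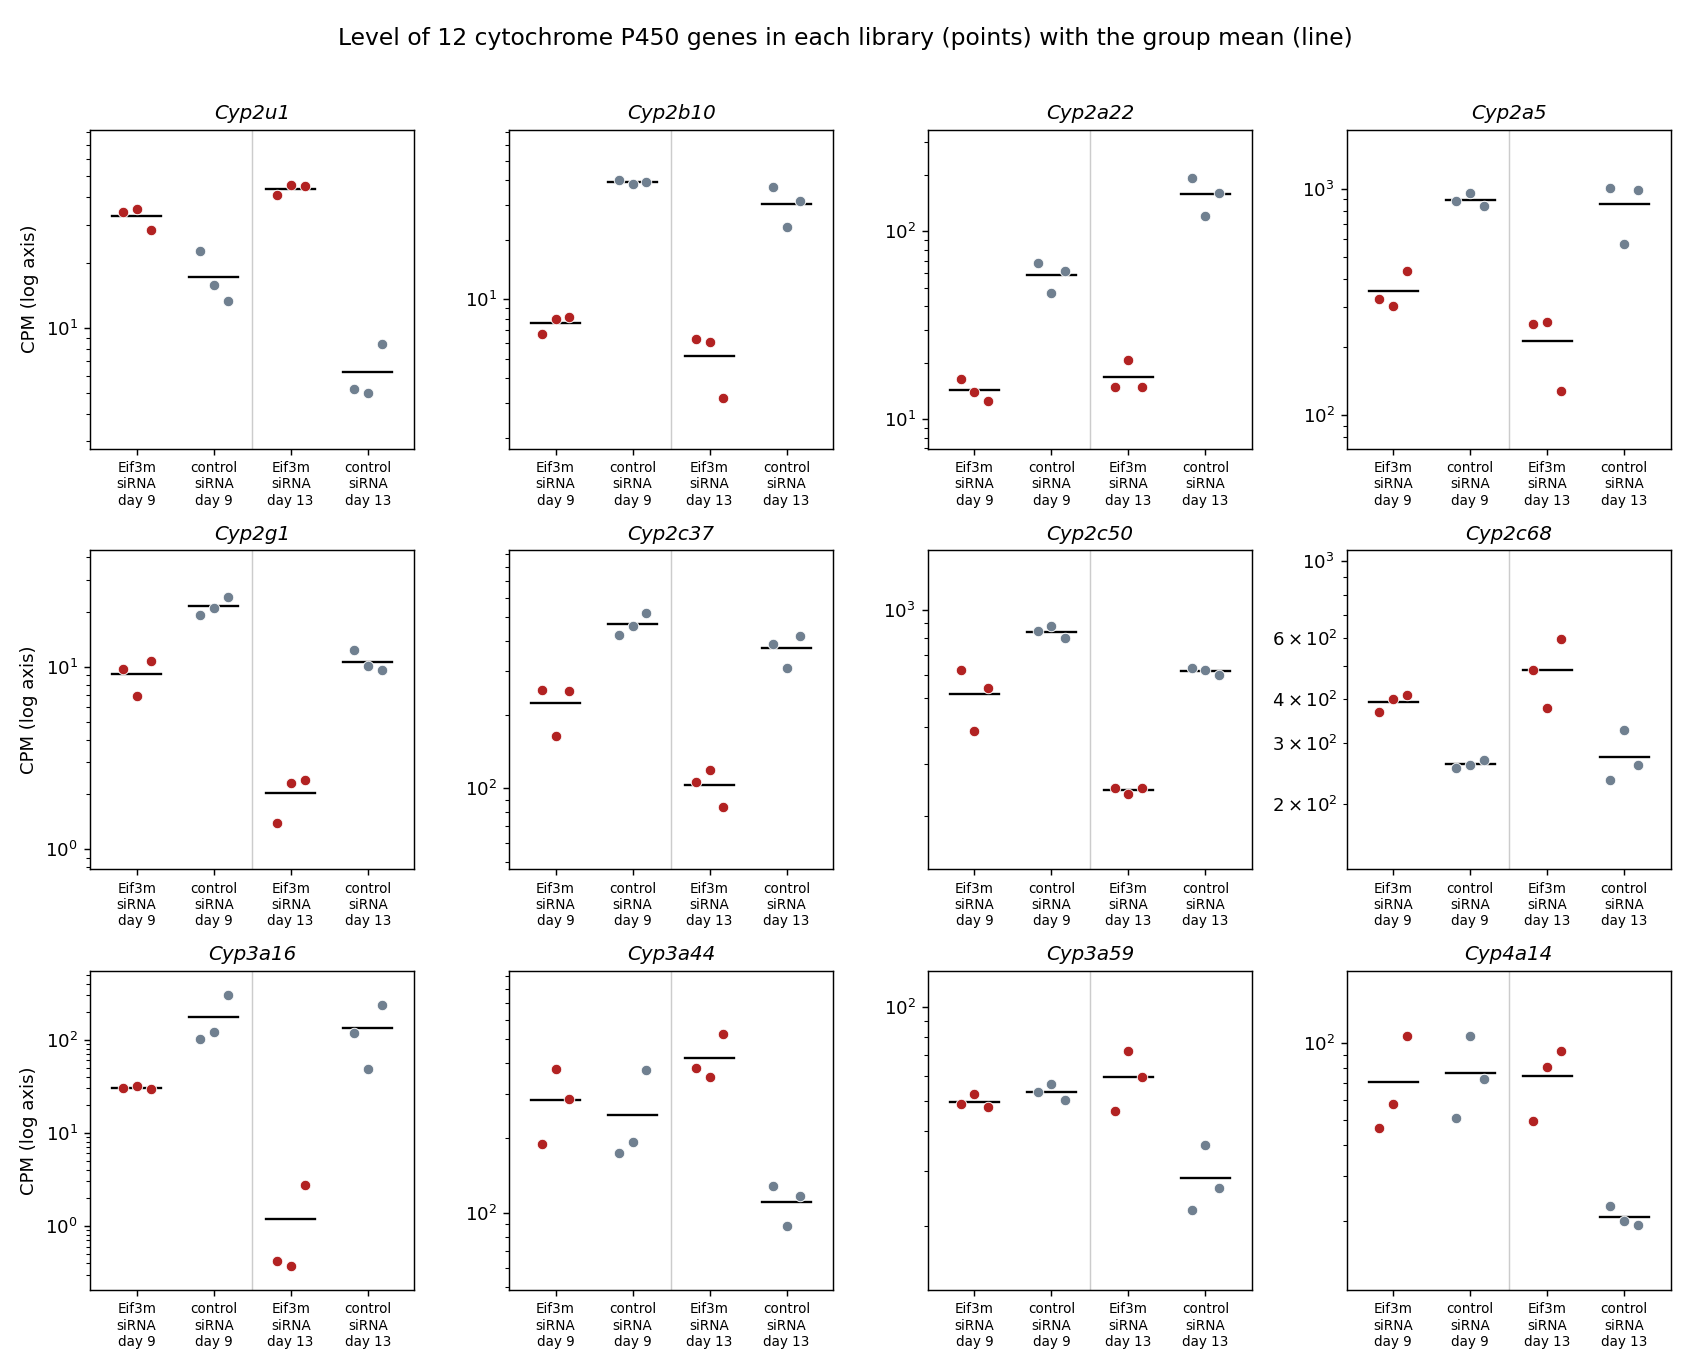
Level in CPM (log axis) of 12 P450 genes in each library, with the Eif3m siRNA group left of its control group on each day. Points are libraries and lines are group means. Cyp2b10, Cyp2a22, Cyp2a5, Cyp2g1, Cyp2c37, Cyp2c50 and Cyp3a16 lie lower in the Eif3m siRNA libraries on both days, Cyp2u1 and Cyp2c68 lie higher, and Cyp3a44, Cyp3a59 and Cyp4a14 are apart at day 13 and overlap at day 9.

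Family 4 showed its rises in the Cyp4a genes of chromosome 4, fatty acid hydroxylases of which Cyp4a10 and Cyp4a14 are well-known PPAR alpha targets. Cyp4a14 (chr4:115486200-115496142) had 46.6, 57.6 and 106 CPM after Eif3m siRNA, against 50.7, 107 and 72.4 CPM in controls at day 9 (log2 fold change -0.13 ± 0.34, adjusted p = 0.856). At day 13 Cyp4a14 had 49.5, 80.6 and 93.5 CPM after Eif3m siRNA, against 23, 20.1 and 19.4 CPM in controls (log2 fold change 1.84 ± 0.38, adjusted p = 0.0054). The day 13 arms were apart, with controls much closer together than the Eif3m siRNA libraries. Cyp4a10 (chr4:115518264-115533649) had 258, 189 and 281 CPM after Eif3m siRNA, against 342, 414 and 399.7 CPM in controls at day 9 (log2 fold change -0.67 ± 0.16, adjusted p = 0.0161). At day 13 Cyp4a10 had 108, 101 and 115 CPM after Eif3m siRNA, against 103, 74.2 and 72.3 CPM in controls (log2 fold change 0.37 ± 0.16, adjusted p = 0.118). Control levels of Cyp4a10 at day 13 were under those at day 9, and the same was seen for Cyp4a14, but day and library preparation cannot be told apart.

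Cyp4a32 and Cyp4a31, close copies of Cyp4a10, rose at day 13. Cyp4a32 had 34.3, 29.7 and 27 CPM after Eif3m siRNA, against 9.29, 10.4 and 6.17 CPM in controls (log2 fold change 1.83 ± 0.41, adjusted p = 0.00815). Cyp4a31 had 2.24, 2.87 and 3.29 CPM after Eif3m siRNA, against 1.61, 0.712 and 0.650 CPM in controls (log2 fold change 1.53 ± 0.35, adjusted p = 0.00642). Neither overlapped between arms. Summed with Cyp4a10 they stood at 67.2% of the control mean at day 9 and 152% at day 13, with no overlap on either day. The calls of Cyp4a14, Cyp4a31 and Cyp4a32 were lost without both day 13 libraries high on the third component (adjusted p = 0.0926, 0.0618 and 0.117), although the fold changes kept their sign, and that of Cyp4a32 also without control replicate 3 alone (adjusted p = 0.0529). The Cyp4a10 call at day 9 was lost without Eif3m siRNA replicate 2 or control replicate 2 or 3 (adjusted p from 0.058 to 0.0699).

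Cyp4a12a, which makes a vasoactive arachidonic acid product mainly in male mice, ranged from 0.975 to 21.8 CPM and overlapped between arms on both days. Cyp4a12b had 2, 9 and 2 counts in the day 13 Eif3m siRNA libraries and 0 in each control, at least 3.79-fold higher against a floor of 3 counts over the control group, and it did not pass the threshold (adjusted p = 0.0525). Cyp4v3 (chr8:45304944-45333216), a fatty acid hydroxylase whose human counterpart is mutated in a crystalline eye dystrophy, had 293, 229 and 284 CPM after Eif3m siRNA, against 411, 451 and 407 CPM in controls at day 9 (log2 fold change -0.66 ± 0.11, adjusted p = 0.00182). At day 13 Cyp4v3 had 199, 190.3 and 198 CPM after Eif3m siRNA, against 308, 333 and 329 CPM in controls (log2 fold change -0.72 ± 0.11, adjusted p = 0.000378). It was lower in every Eif3m siRNA library than in every control and kept its call under every alternative. A gene on the same strand, Gm45753, shares 313 of its exon bases and did not pass the threshold on either day.

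Cyp4f15 fell on both days, with 86.7, 76.6 and 87.7 CPM after Eif3m siRNA, against 125, 117 and 105 CPM in controls at day 9 (log2 fold change -0.47 ± 0.10, adjusted p = 0.00885). At day 13 Cyp4f15 had 77.6, 71.7 and 72.7 CPM after Eif3m siRNA, against 98, 89.2 and 95.5 CPM in controls (log2 fold change -0.35 ± 0.10, adjusted p = 0.0264). Its day 13 call was lost without Eif3m siRNA replicate 2 or 3 or control replicate 1 (adjusted p from 0.0593 to 0.0813), without both day 13 libraries high on the third component (adjusted p = 0.0674), with no filter on low counts (adjusted p = 0.0688) and with the day fitted alone (adjusted p = 0.0917). Cyp4f14, a leukotriene hydroxylase, and Cyp4f13, Cyp4f16 and Cyp4f17 did not pass on either day, with log2 fold changes from -0.26 to 0.02 at day 9 and from -0.18 to 0.47 at day 13. Cyp4b1, known best from lung, likewise did not pass, with log2 fold changes of 0.24 (adjusted p = 0.357) and 0.14 (adjusted p = 0.676).

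The siRNA effect itself differed between the days for 5 members, in the test of the day 13 effect minus the day 9 effect. It was higher at day 13 for 3 members, against 0.898% of all tested genes, and lower for 2, against 1.66%. Cyp2u1 differed most (1.87 ± 0.29, adjusted p = 0.00712), followed by Cyp2a22 (-1.19 ± 0.27, adjusted p = 0.0415), Cyp3a59 (1.18 ± 0.24, adjusted p = 0.0232), Cyp2a4 (-1.12 ± 0.27, adjusted p = 0.0448) and Cyp4a10 (1.04 ± 0.23, adjusted p = 0.0336), all on the log2 scale. Cyp2u1 kept this call under every alternative. The other 4 lost it when single libraries were left out, for 9 of the 12 libraries with Cyp2a22 (adjusted p from 0.0557 to 0.111), 10 with Cyp2a4 (adjusted p from 0.0527 to 0.107), 8 with Cyp4a10 (adjusted p from 0.0532 to 0.103) and 5 with Cyp3a59 (adjusted p from 0.0519 to 0.0654). Without both day 13 libraries high on the third component, the calls of Cyp2a4 (adjusted p = 0.0943) and Cyp4a10 (adjusted p = 0.0576) were lost, and with limma-voom that of Cyp2a22 was lost (adjusted p = 0.0536). Whether the difference belongs to the day or to the library preparation cannot be told apart.

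Genes of the proteins that feed electrons to P450 enzymes or partner with them were counted next. Of 6 such genes, 3 (50%) fell at day 9 and 4 (66.7%) at day 13, against 6.84% and 10.9% of all tested genes, and none rose. Cyb5r3, the reductase of cytochrome b5, had log2 fold changes of -0.67 (adjusted p = 0.00434) at day 9 and -0.64 (adjusted p = 0.00286) at day 13. Pgrmc1, a heme-binding partner of P450 enzymes, had -0.47 (adjusted p = 0.0281) and -0.62 (adjusted p = 0.00336), and Pgrmc2 had -0.52 (adjusted p = 0.00468) and -0.15 (adjusted p = 0.314). Por, the P450 reductase, did not pass at day 9 with -0.45 (adjusted p = 0.191) and fell at day 13 with -0.64 (adjusted p = 0.0431), and cytochrome b5 itself (Cyb5a) had -0.29 (adjusted p = 0.209) and -0.51 (adjusted p = 0.0205). The median log2 fold change over the 6 genes was -0.46 at day 9 and -0.56 at day 13, against 0.01 and 0.00 over all tested genes.

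Heme synthesis had 11 tested genes, of which 2 fell at day 9 (Abcb10 and Ppox) and 4 at day 13 (Alas1, Alas2, Fech and Abcb10), with no rise. These were 18.2% and 36.4% of the list, against 6.84% and 10.9% of all tested genes. Alas1, the rate-limiting enzyme of hepatic heme synthesis, averaged 241 ± 98.9 CPM after Eif3m siRNA and 218 ± 96.5 CPM in controls at day 9 (log2 fold change 0.15 ± 0.50, adjusted p = 0.886). At day 13 Alas1 averaged 208 ± 80.9 CPM after Eif3m siRNA and 816 ± 345 CPM in controls (log2 fold change -1.97 ± 0.52, adjusted p = 0.0221; SD, n = 3 each). Alas2 is the form of red cell precursors, and the summed level of 5 erythroid markers, Alas2 included, ran from 464.5 to 1480 CPM in the day 13 Eif3m siRNA libraries and from 1677 to 4025 CPM in their controls. The part of red cells in that fall was not tested. Among 4 heme breakdown genes, Hmox1 rose at day 9 with a log2 fold change of 0.82 (adjusted p = 0.000831) and Hmox2 rose at day 13 with 0.66 (adjusted p = 0.011). Each is 25% of that list, where 5.94% and 12.8% of all tested genes rose.

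Of 27 tested receptors and regulators of P450 genes, 3 (11.1%) fell at day 9 and 5 (18.5%) at day 13, while 0 and 4 (14.8%) rose. Over all tested genes, 6.84% fell at day 9 and 10.9% at day 13, while 5.94% and 12.8% rose. The share that rose at day 13 was thus close to that of all genes. Nr1i3, which encodes CAR, fell on both days, with log2 fold changes of -1.07 (adjusted p = 0.0273) and -1.13 (adjusted p = 0.0143). Nr1i2, which encodes PXR, had 0.20 (adjusted p = 0.297) at day 9 and rose at day 13 with 0.45 (adjusted p = 0.0192). The coactivator gene Ppargc1a fell at day 9 with -0.57 (adjusted p = 0.0158). The genes of the AHR and of PPAR alpha (Ahr and Ppara) passed on neither day, with 0.25 and 0.13 at day 9 and 0.13 and -0.16 at day 13.

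Regulators that depend on growth hormone and act on sex-biased P450 genes had the largest log2 fold changes of that list at day 13. Bcl6, a repressor made more in male mouse liver, averaged 46.3 ± 4.49 CPM after Eif3m siRNA and 3.42 ± 1.73 CPM in controls (log2 fold change 3.72 ± 0.69, adjusted p = 0.00422; SD, n = 3 each). Cux2, a factor made mainly in female mouse liver, averaged 0.866 ± 0.324 CPM after Eif3m siRNA and 19 ± 7.24 CPM in controls (log2 fold change -4.43 ± 0.64, adjusted p = 0.000814; SD, n = 3 each). At day 9 neither passed, with log2 fold changes of 0.09 (adjusted p = 0.939) for Bcl6 and -1.02 (adjusted p = 0.123) for Cux2. Tox and Foxa2 fell at day 13 with -1.26 (adjusted p = 0.0128) and -0.94 (adjusted p = 0.0139), and Rora and Tcf7l2 rose with 0.79 (adjusted p = 0.0259) and 0.51 (adjusted p = 0.0125).

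Other targets of the same receptors gave counts beside those of the P450 genes. For comparison, 6.84% of all tested genes fell and 5.94% rose at day 9, and 10.9% fell and 12.8% rose at day 13. Of 11 CAR and PXR targets outside the P450 group, 4 fell at day 9 and 6 at day 13 and none rose, with log2 fold changes for Ugt1a1 of -1.25 (adjusted p = 0.000565) and -2.16 (adjusted p = 4.15e-06), Ces2a of -1.23 (adjusted p = 0.000102) and -1.46 (adjusted p = 1.01e-05), and Abcc3 of -1.07 (adjusted p = 0.00496) and -1.48 (adjusted p = 0.000313). Of 15 PPAR alpha targets, 4 fell and 2 rose at day 9, and 6 fell and 1 rose at day 13, with log2 fold changes for Acot1 of -1.83 (adjusted p = 0.00982) and -3.06 (adjusted p = 0.00341), for Acaa1b of -1.14 (adjusted p = 0.0273) and -1.71 (adjusted p = 0.00192), and for Fgf21, which rose, of 2.71 (adjusted p = 0.00316) and 2.60 (adjusted p = 0.0215). At day 13 Cyp4a14 rose, and 6 of the 7 called PPAR alpha targets of this list fell. The part of PPAR alpha in these changes was not tested. Of 4 tested AHR targets, Nqo1 fell on both days with -0.86 (adjusted p = 0.0271) and -1.19 (adjusted p = 0.0167), and Ugt1a6a rose at day 13 with 0.86 (adjusted p = 0.00188).

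Genes of the hepatocyte zones were counted because several P450 enzymes sit around the central vein. Among all tested genes, 6.84% fell and 5.94% rose at day 9, and 10.9% fell and 12.8% rose at day 13. Of 11 pericentral genes outside the P450 group, 1 fell at day 9 (Tbx3) and 5 at day 13 (among them Glul, Slc1a2, Lhpp and Gulo), and none rose. Glul, glutamine synthetase of the innermost pericentral cells, had log2 fold changes of -0.13 (adjusted p = 0.547) and -0.73 (adjusted p = 0.00108). Of 10 periportal genes, 2 fell (Gls2 and Ass1) and 1 rose (Pck1) at day 9, and 3 rose (Cps1, Arg1 and Hsd17b13) and 0 fell at day 13. The median log2 fold changes were -0.38 and -0.50 for the pericentral list and -0.07 and 0.17 for the periportal list at day 9 and day 13.

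Start windows of the same kind were found in the RefSeq table for 65 members, of which 5 had more than 1. A member was counted when any of its windows held the motif, whereas the share over all 32851 windows counts each window singly. The TATA motif TATAAA, searched on both strands, was in 29 of these 65 members (44.6%) and in 13.6% of all 32851 windows. A C/EBP half-palindrome pair, TTGCNNAA, was in 15 (23.1%) and in 10.8% of all windows. The core of the AHR response element, GCGTG, was in 13 (20%) and in 32.4% of all windows. No motif of the 3 contains another, and a match is a description of the sequence only.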

How the data were processed

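RNA-seq of 12 liver libraries was used as 1 deposited table of whole-number estimated counts per Ensembl gene. The authors' tools were STAR 2.5.3a and RSEM 1.3.0 with genome build mm10, per the submitters' processing notes, and the values were therefore taken as rounded expected counts. Which annotation release and strand setting were used is not given in the sources. Gene symbols, positions and coding sequences came from GENCODE M21 on GRCm38, which named 50462 of 50686 rows. Symbols matching the P450 rule but annotated as pseudogenes or non-coding, 20 in all, were left out.

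From the counts, edgeR 4.0.16 (R 4.3.3) fitted 1 mean per group over all 12 libraries, with TMM scaling, filterByExpr at a minimum count of 10, robust quasi-likelihood dispersion and 8 residual degrees of freedom. Tests were two-sided with Benjamini-Hochberg adjustment over 14248 genes and a threshold of 0.05, for the siRNA effect at each day and for the difference of these effects. CPM values are TMM-scaled, and no pseudocount was added to the levels. Errors beside log2 fold changes are standard errors worked back from the quasi-likelihood test. Each is the absolute log2 fold change over the square root of the F statistic of that test. Per-kilobase levels use transcript length. The tests were tried on simulated data with known changes before use.

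The members and lists were chosen with earlier results of these data known. Named members were those called with the 15 largest rises and the 15 largest falls of a day, the most abundant of each subfamily, those called between days and their close copies. Other members were named so that all are accounted for, and uncalled receptors and partner proteins were named for their role after their values were seen. Close copies were joined at 95% identity of coding bases, because protein identity was not used here, and sums carry no test. Alternatives covered scaling by DESeq2 1.42.0 size factors or upper quartiles, low-count filters, DESeq2, limma-voom (limma 3.58.1), a replicate block, each day alone and each library left out. Leaving out 2 libraries together and joining copies were chosen after seeing the data. Figures were drawn with matplotlib 3.10.9. The median SD of log2 CPM between libraries of a group was 0.128 and 0.145 at day 9 and 0.249 and 0.27 at day 13, in the Eif3m siRNA and control groups, so day 13 values, with fewer reads, are less precise. Some genes of the receptor and zone lists are counted but not reported here singly.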

Additional observations from a re-analysis of the deposited data

Results flagged for a closer look

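The siRNA effect differed between day 13 and day 9 for 5 P450 genes in the interaction term of edgeR's quasi-likelihood test. Of 60 tested members, 5% were called higher and 3.33% lower, against 0.898% and 1.66% of all tested genes. Only Cyp2u1 kept this call under every alternative. With 1 library left out at a time, Cyp3a59 lost it for 5 of the 12 libraries, Cyp4a10 for 8, Cyp2a22 for 9 and Cyp2a4 for 10. Cyp2u1 had an effect 1.87 higher at day 13 on the log2 scale (adjusted p = 0.00712), with all 3 Eif3m siRNA libraries above all 3 controls on both days. Cyp3a59 had an effect 1.18 higher (adjusted p = 0.0232), with overlapping arms at day 9. Cyp4a10 had an effect 1.04 higher (adjusted p = 0.0336), with the Eif3m siRNA libraries below all controls at day 9. Cyp2a22 and Cyp2a4 had effects of -1.19 (adjusted p = 0.0415) and -1.12 (adjusted p = 0.0448) at day 13 relative to day 9. The summed Cyp4a level lay below the controls in all 3 Eif3m siRNA libraries of day 9 and above them in all 3 of day 13, a shift of 1.43 in the log2 ratio of the means, and this difference was not tested.

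Day 9 and day 13 libraries also differed in their preparation and depth, which cannot be told apart from the day. Control levels themselves differed, and Cyp2u1 averaged 17.3 CPM in the day 9 controls and 6.23 CPM in the day 13 controls.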

How the results depend on the processing

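No called member changed sign under any alternative, and members not called were not followed across them. None of the 272 subfamily ratios compared under other scalings or with a library left out moved by more than the spread between libraries. Leaving out 1 library of 3 can hardly move a group mean by more than that spread. Those ratios are therefore no check, and only the other scalings could have shown a move. The 3 members whose effect was higher at day 13 were 9 with DESeq2, and the 2 whose effect was lower were 5 with DESeq2, 1 with limma-voom and 1 without both day 13 libraries high on the third component. The cause was not tested. Leaving out 1 library at a time gave 1 to 3 rises and 10 to 18 falls at day 9, 10 rises and 13 to 20 falls at day 13, and 1 to 4 higher and 0 to 3 lower for the difference between days. The rises at day 9 were 1 without Eif3m siRNA replicate 1 or 2 or control replicate 2 or 3 of day 9. At an unadjusted p under 0.05, edgeR's quasi-likelihood test named 24 members at day 9, 37 at day 13 and 22 for the difference. The matching counts over all tested genes were not taken, so these cannot be set against all genes.

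Samples that share a replicate number did not deviate together, with correlations from -0.153 to 0.133, so the numbers were not taken as pairs. With the replicate block, 2 members rose and 13 fell at day 9, 10 rose and 15 fell at day 13, and 2 and 2 were called higher and lower for the difference. Over all 14248 tested genes, 542 rose and 674 fell at day 9 with the block, and 1453 rose and 1228 fell at day 13. For the difference, 28 were called higher and 89 lower. The block ended the calls of Cyp2c68, Cyp2c70 and Cyp2j5 at day 9 (adjusted p = 0.0692, 0.0673 and 0.0776), of Cyp2c54, Cyp2d22, Cyp3a41b and Cyp4f15 at day 13 (adjusted p = 0.1, 0.0592, 0.0784 and 0.0645), and of Cyp2a22 and Cyp4a10 for the difference (adjusted p = 0.0955 and 0.0744).

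Over all tested genes, the 846 higher and 975 lower calls at day 9 were 1687 and 1725 with each day alone and 1422 and 1628 without the pair high on the third component, and the higher calls were 1315 with limma-voom and 542 with the replicate block. Leaving out 1 day 9 library gave as few as 413 higher and 471 lower. The 1824 higher and 1553 lower calls at day 13 were 1060 and 954 with each day alone, and the higher calls were 1207 without Eif3m siRNA replicate 3. For the difference, 128 higher and 236 lower calls were 471 and 520 with DESeq2 and 28 and 89 with the block, and the higher calls were 288 without that pair. Of those called for the difference, 22.9% were higher with upper-quartile scaling, against 35.2% with TMM.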
